A study of Rattus norvegicus with 14 samples.

Results

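The genes for the voltage-gated calcium channels, the voltage-gated sodium channels and the hyperpolarization-activated HCN channels were followed through rat pineal glands, retinas and mixed tissue over 1 day. They were chosen by symbol alone (Cacna, Cacnb, Cacng, Scn or Hcn followed by the member's own code), with the values of the transcripts of 1 gene added up. In all, 43 of 16472 genes matched, from 47 of 16932 transcripts. Of these, 41 reached 0.5 FPKM (fragments per kilobase of transcript, scaled to the mapped fragments of the library, so that genes can be compared per length) in 2 or more of the 14 libraries and are described here. Scn10a and Scn11a, sodium channel pores of pain-sensing neurons, did not, with second-highest libraries at 0.0223 and 0.0791 FPKM. The members nearest above the limit were Cacng6 (0.900), Scn9a (0.921) and Cacng8 (1.39).

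All rats were Sprague-Dawley, aged 6 to 8 weeks and housed with lights on for 14 h and off for 10 h; the protocols name no other treatment and no genetic change. The pineal gland and the retina each gave 6 libraries, 1 per time of day (ZT, hours after lights on): ZT1, ZT7 and ZT13 fell in the light, ZT15, ZT19 and ZT23 in the dark. Each of these libraries pooled 10 animals. Mixed tissue without pineal gland, a blend of 15 tissues from 3 animals (brain regions, retina, pituitary, heart and skeletal muscle among them), gave 1 library at ZT7 and 1 at ZT19. Its stated purpose was to look for rhythmic transcripts, with the mixed tissue as the comparison for enrichment in the pineal gland. A pool at 1 time of day is 1 measurement, so tissues were compared with their 6 times of day as replicates, and the p-values measure the spread between pools and times.

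Voltage-gated calcium channels open when a cell depolarizes and let calcium in. The pore (alpha1) subunit sets the type: L-type pores carry long-lasting currents and serve the continuous release of ribbon synapses, Cav2 pores (P/Q-, N- and R-type) serve fast transmitter release, and T-type pores open near the resting potential. The alpha2delta and beta subunits bring the pore to the membrane and tune it. Sodium channels carry the action potential, with beta subunits that steer their gating and placing. HCN channels open on hyperpolarization, are favoured by cyclic nucleotides, and shape resting potential and rhythmic firing. Pinealocytes are relatives of photoreceptors: noradrenaline from sympathetic nerves raises their cyclic AMP and calcium at night, and melatonin follows.

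Promoters were set beside the levels for 4 members on which the tissue and time results turn: Cacna1c, whose level changed with time of day in the pineal gland, Cacna1f, the most abundant calcium channel pore of both tissues, Hcn2, the most abundant member in the pineal gland by mean, and Cacng3, which was listed at 0 in 4 of the 6 pineal libraries. The 250 bases before each RefSeq start (GRCr8 build) are printed 5′ to 3′ on the gene's own strand: Cacna1c chr4:154051749-154051998 (minus strand), Cacna1f chrX:17568309-17568558 (minus), Hcn2 chr7:10639458-10639707 (minus) and Cacng3 chr1:186632312-186632561 (plus). Capitals mark any of the motifs searched.
Cacna1c: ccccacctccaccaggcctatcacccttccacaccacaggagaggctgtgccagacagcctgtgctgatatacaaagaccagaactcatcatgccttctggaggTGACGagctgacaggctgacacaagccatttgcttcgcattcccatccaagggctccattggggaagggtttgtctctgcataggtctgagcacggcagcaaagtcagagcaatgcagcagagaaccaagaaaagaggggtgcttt
Cacna1f: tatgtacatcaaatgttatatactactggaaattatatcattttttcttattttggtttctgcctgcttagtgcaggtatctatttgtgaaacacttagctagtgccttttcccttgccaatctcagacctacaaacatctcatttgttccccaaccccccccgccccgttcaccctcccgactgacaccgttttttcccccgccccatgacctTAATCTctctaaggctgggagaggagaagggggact
Hcn2: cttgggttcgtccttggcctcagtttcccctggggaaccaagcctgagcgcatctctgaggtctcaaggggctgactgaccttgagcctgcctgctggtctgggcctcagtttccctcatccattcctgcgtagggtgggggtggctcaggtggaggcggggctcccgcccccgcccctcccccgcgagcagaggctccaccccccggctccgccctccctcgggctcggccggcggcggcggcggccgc
Cacng3: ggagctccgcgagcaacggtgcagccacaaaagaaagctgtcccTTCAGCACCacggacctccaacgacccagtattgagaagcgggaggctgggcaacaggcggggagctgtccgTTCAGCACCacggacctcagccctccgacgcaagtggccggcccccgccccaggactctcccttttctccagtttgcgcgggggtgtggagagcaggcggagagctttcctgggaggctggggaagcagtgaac
The motifs, read on both strands, were the cyclic AMP response element TGACGTCA, its core TGACG (contained in the former), the letters TAATCC and TAATCT bound by the pineal and photoreceptor factor Crx, the clock E-box CACGTG, and TTCAGCACC, a stretch of the RE1 element bound by the neuronal gene repressor REST. A window was present for 27 of the 43 genes (30 windows). TGACG stood 146 bases before the Cacna1c start, and 18.22% of all 33469 windows of this length hold it. TAATCT stood 36 bases before the Cacna1f start (7.72% of all windows). TTCAGCACC stood 206 and 134 bases before the Cacng3 start, the only member window with these letters (0.3% of all windows). The Hcn2 window held none of them, and TGACGTCA (1.59%), TAATCC (6.34%) and CACGTG (5.59%) were in no member window. These matches describe the letters only.

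The marker lists separated the libraries in part. Among the 5 pinealocyte markers, Tph1, the first enzyme of serotonin synthesis, lay between 2968 and 3848 FPKM in pineal glands and at 0.359 to 0.522 in retinas. Asmt and Aanat were also higher in every pineal library than in any retina. Crx (160 to 275 FPKM in pineal glands, 208 to 270 in retinas) and Gngt1 (430 to 1040, 715 to 1620) overlapped. The 5 rod markers summed to 6.51 to 19.2 FPKM in pineal glands and 12009 to 16178 in retinas. Summed over the 5 cone markers, pineal glands held 425 to 600 FPKM and retinas 68.6 to 92.0. Gnat2 made up most of this pineal sum (377 to 573 FPKM, against 28.8 to 39.9 in retinas). Arr3 (4.16 to 8.05 against 11.4 to 27.9) and Opn1mw (0 to 0.114 against 10.6 to 20.7) were lower in every pineal library than in any retina. Opn1sw and Cnga3 overlapped. Summed over 5 markers of horizontal and amacrine cells, retinas held 301 to 364 FPKM and pineal glands 19.6 to 39.5. Most of the pineal sum was Slc6a9 (17.9 to 38.6 FPKM). Gad1, Gad2, Slc32a1 and Calb2 reached at most 0.489, 0.348, 0.224 and 1.61 FPKM in pineal glands. Summed over the 4 ganglion cell genes found of the 6 listed, the pineal libraries held 2.95 to 5.91 FPKM and the retinas 207 to 251. Of the 4 brain neuron genes, Grin1 (0.0599 to 0.502) was near 0 in pineal glands, while Snap25 and Slc17a7, which pinealocytes also use, were abundant. The 2 lens genes found of the 4 listed summed to 374 and 942 FPKM in the retinas of ZT1 and ZT19, to 44.0 to 147 in the other retinas, and to at most 3.83 in pineal glands. Read counts were not used. An estimate from the lowest values of olfactory receptor genes put the depth relative to the deepest library (retina ZT23) lowest at pineal ZT19 (0.410), retina ZT1 (0.435) and pineal ZT23 (0.450). Housekeeping transcripts also had values near 0 (Gapdh 0.0715 to 0.567 FPKM, Hspa8 0 to 0.162), so a 0 is given only as listed.

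A mean of at least 1 FPKM was reached by 22 of the 41 members in the pineal gland, 34 in the retina and 39 in mixed tissue. At 10 FPKM the counts were 8, 11 and 13. Summed over the members, the mean levels were 376, 397 and 368 FPKM in the same order. Over all genes, 8852 to 9336 reached 1 FPKM in each pineal library, 9380 to 9593 in each retina and 11225 to 11399 in each mixed library, so the order was the same. Cacng1, Cacng6, Cacng8 and Scn9a reached the limit of 0.5 FPKM in the mixed libraries only.

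**Figure D1:**
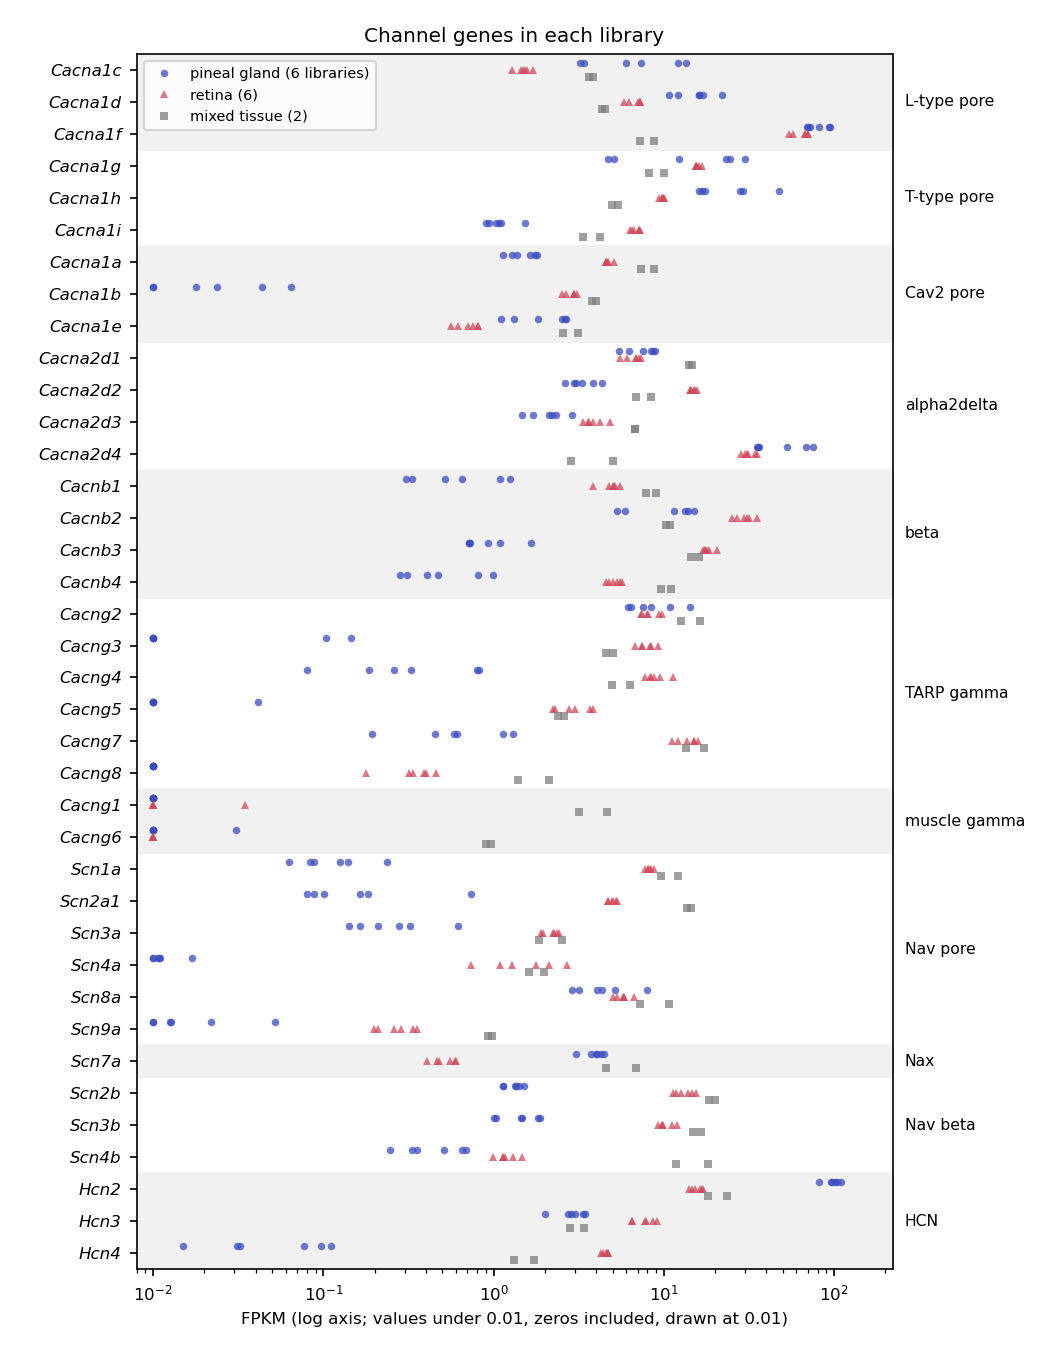
FPKM (log axis) of 38 of the 41 described genes in each library, grouped by subfamily; each circle is a pineal library, each triangle a retina library and each square a mixed tissue library, and values under 0.01, zeros included, are drawn at 0.01. Pineal levels span from genes listed at 0, such as Cacng8, to Hcn2 at 81.5 to 109 FPKM.

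Between pineal gland and retina, 34 of the 39 members tested passed (limma on log2(FPKM + 1), adjusted p under 0.05 over all 11656 genes tested), 8 higher and 26 lower in the pineal gland. That is 87.2% of the members, where 68.9% of all genes tested passed, 36.9% higher and 32.0% lower. The median difference was -1.20 over the members and 0.03 over all genes. For 7 of the 41 members every pineal library lay above every retina library, and for 27 every pineal library lay below (25.6% and 24.4% of all genes tested). The higher members were all 3 L-type pores, Cacna1h, Cacna1e, Cacna2d4, Hcn2 and Scn7a; no beta, gamma, sodium channel pore or sodium channel beta gene was among them. In these bulk samples, fewer cells of a type and less RNA per cell cannot be told apart.

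**Figure D2:**
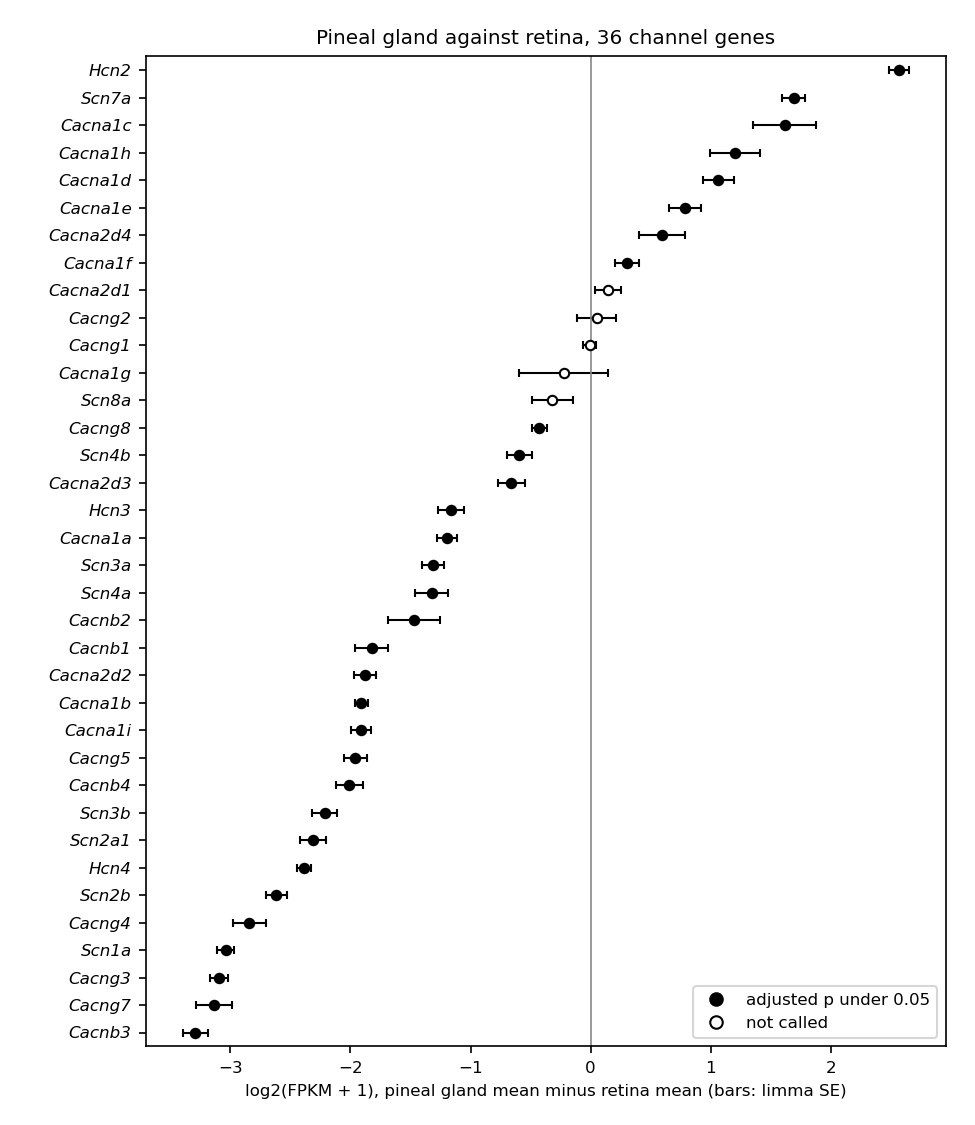
Difference between the pineal and retina means of log2(FPKM + 1) for 36 of the 39 tested genes, with the limma standard error as bars; filled points passed at an adjusted p of 0.05 and open points did not. The differences run from 2.57 for Hcn2 to -3.29 for Cacnb3, and 23 of the 31 filled points lie below 0.

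L-type pores were the most abundant calcium channel transcripts of both tissues. Cacna1f (chrX:26908850-26937165 in the rn4 build), the pore of photoreceptor ribbon synapses, made up 77.5% of the summed L-type level in pineal glands and 88.6% in retinas. Its pineal values were 94.6, 81.7, 68.9, 70.1, 72.0 and 93.8 FPKM from ZT1 to ZT23, and its retina values 54.6, 70.2, 67.4, 70.3, 67.5 and 57.1. The groups overlapped: the lowest pineal libraries lay among the higher retinas. The difference passed but was small, 0.30 ± 0.10 (log2 scale, SE, adjusted p = 0.0164). It was lost with the retinas of ZT1 and ZT19, in which lens genes were highest, left out (0.26, adjusted p = 0.0631). Median ratio scaling also ended the call (0.23, adjusted p = 0.0737), and the sign turned with quantile normalization (-0.11, adjusted p = 0.325).

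Cacna1d (chr16:5383259-5703361), the L-type pore of hair cells and neuroendocrine cells, was 2.30-fold higher in the pineal gland, with 12.1, 21.9, 16.0, 17.0, 16.0 and 10.8 FPKM against 5.84 to 7.27 in the retinas (difference 1.07 ± 0.13, adjusted p = 3.63e-06). Cacna1c (chr4:154895691-155517389), the pore of heart, smooth muscle and many neurons, was 5.03-fold higher on average. Its pineal values were 13.5, 5.98, 3.22, 3.37, 7.37 and 12.1 FPKM against 1.28 to 1.71 in the retinas (1.62 ± 0.26, adjusted p = 6.1e-05). All pineal libraries of both genes stood above all retinas. Together the L-type pores summed to 103 ± 13.9 FPKM in pineal glands and 72.8 ± 6.56 in retinas (SD, n = 6 each).

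The T-type pores differed one by one. Cacna1h (chr10:14621372-14679051) was 2.64-fold higher in the pineal gland, with 29.0, 16.1, 17.4, 16.8, 28.0 and 47.7 FPKM against 9.35 to 10.1 (1.205 ± 0.208, adjusted p = 0.000103). Cacna1g (chr10:83043636-83112886), the main T-type pore of thalamic relay neurons, held 24.4, 12.2, 4.72, 5.09, 23.2 and 29.8 FPKM in the pineal gland and 15.4 to 16.7 in the retina. The pineal libraries of Cacna1g lay on both sides of the retinas, and the tissue means did not differ beyond their spread (-0.22 ± 0.37, adjusted p = 0.614). Cacna1i, the third T-type pore, was lower in the pineal gland, at 0.908 to 1.52 against 6.33 to 7.24 FPKM (-1.91 ± 0.08).

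The Cav2 pores were scarce in the pineal gland: they summed to 3.53 ± 0.940 FPKM, against 8.26 ± 0.204 in the retina (SD, n = 6) and 14.7 in mixed tissue. Cacna1a, the P/Q-type pore, lay at 1.13 to 1.79 FPKM in pineal glands and 4.54 to 5.06 in retinas (-1.20 ± 0.08). Cacna1b, the N-type pore of sympathetic and central terminals, was listed at 0, 0.0439, 0.0645, 0.00949, 0.0178 and 0.0236 FPKM in pineal glands and at 2.51 to 3.10 in retinas. Both genes were lower in every pineal library. Cacna1e, the R-type pore, went the other way and made up 56.9% of the pineal Cav2 sum, with 1.11 to 2.67 FPKM against 0.561 to 0.810 (0.78 ± 0.13, adjusted p = 8.59e-05).

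Of the alpha2delta subunits, Cacna2d4 (chr4:155546301-155658429), the partner of Cacna1f in photoreceptors, led in both tissues with 79.5% of the pineal and 55.4% of the retinal sum. It read 74.8, 52.5, 35.5, 35.4, 36.0 and 68.7 FPKM in pineal glands and 34.1, 35.1, 31.0, 29.9, 28.5 and 30.6 in retinas. The lowest pineal library stood just above the highest retina, and the difference was 0.60 ± 0.19 (adjusted p = 0.0112), no longer passing with quantile normalization (0.29, adjusted p = 0.146). Its span overlaps that of Lrtm2 over 14658 bases; no label or header says if the counting used strand, so reads of the shared stretch cannot be told apart. Lrtm2 lay at 0.624 to 1.56 FPKM in pineal glands and 9.13 to 11.1 in retinas.

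The other alpha2delta genes did not follow Cacna2d4. Cacna2d2 was lower in the pineal gland, at 2.62 to 4.35 against 14.3 to 15.7 FPKM (-1.88 ± 0.09), and Cacna2d3 at 1.47 to 2.90 against 3.33 to 4.84 (-0.66 ± 0.11). Cacna2d1, a target of gabapentin in neurons and the muscle form, read 5.43 to 8.92 and 5.54 to 7.30 FPKM and did not differ beyond its spread (0.15 ± 0.11, adjusted p = 0.251). The authors' table splits Cacna2d1 into 3 transcripts. NM_012919 was the highest in each library, at 4.03 to 6.52 FPKM in pineal glands and 4.93 to 6.57 in retinas, and NM_001110848 was listed at 0 in all pineal libraries and at 0.245 to 0.517 in retinas.

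All 4 beta subunits were lower in the pineal gland. Their sum was 13.02 ± 4.22 FPKM there and 58.1 ± 5.13 in the retina (SD, n = 6). Cacnb2 (chr17:88853246-89078870), the beta subunit of heart and of photoreceptor synapses, made up 83.0% of the pineal sum. It read 11.4, 15.1, 13.3, 13.8, 5.89 and 5.33 FPKM in pineal glands and 25.2 to 35.4 in retinas (-1.47 ± 0.21, adjusted p = 1.91e-05). Cacnb3 (chr7:137384752-137394283), common in neurons, was farther below on the log2(FPKM + 1) scale than any other member tested, a ranking that a smaller pseudocount changes, at 0.715 to 1.65 FPKM in pineal glands and 17.1 to 20.4 in retinas (-3.29 ± 0.10, adjusted p = 3.98e-13). Cacnb1 (0.305 to 1.25 against 3.83 to 5.49 FPKM) and Cacnb4 (0.281 to 0.998 against 4.56 to 5.71) were lower by -1.82 and -2.01 on the log2 scale. The range of no beta gene overlapped between the tissues.

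The gamma genes named after calcium channels fall into a group that escorts AMPA-type glutamate receptors (TARPs) and a muscle group. Of 6 TARP genes tested, 5 were lower in the pineal gland and none higher. Cacng2 (stargazin, chr7:115913440-116037891) was the exception, at 8.41, 7.55, 6.14, 6.44, 10.8 and 14.3 FPKM against 7.35 to 9.71 in the retinas, with no difference beyond the spread (0.05 ± 0.16, adjusted p = 0.812). It alone made up 88.4% of the pineal TARP sum, where the retina's leading gene, Cacng7, made up 32.7%. Cacng7 read 0.194 to 1.29 against 11.1 to 15.9 FPKM (-3.14 ± 0.15), and Cacng4 0.0804 to 0.821 against 7.69 to 11.3 (-2.84 ± 0.14).

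Cacng3 (chr1:181498716-181594090), whose promoter carries TTCAGCACC at 2 places in the window printed above, was listed at 0 in 4 pineal libraries and at 0.104 (ZT13) and 0.145 (ZT15) in the others. The retinas held 6.78 to 9.19 FPKM (-3.09 ± 0.08, adjusted p = 2.88e-14). Cacng5 was listed at 0 in all pineal libraries but that of ZT7 (0.0412) and at 2.24 to 3.82 in retinas. Cacng8 was listed at 0 in every pineal library and at 0.179 to 0.457 in retinas. The muscle genes Cacng1 and Cacng6 were at most 0.0345 FPKM in either tissue, and at 3.19 to 4.66 and 0.900 to 0.966 in mixed tissue. The 4 skeletal muscle markers summed to 0.202 to 0.804 FPKM in pineal glands, 2.65 to 4.36 in retinas and 3040.4 to 3833 in mixed tissue.

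Sodium channel pores were low in the pineal gland apart from Scn8a. Their sum was 5.78 ± 1.56 FPKM there and 24.0 ± 1.16 in the retina (SD, n = 6). Scn8a (chr7:139686180-139794290), the pore of nodes of Ranvier and axon initial segments, held 79.5% of the pineal sum with 4.35, 4.04, 2.87, 3.16, 8.00 and 5.14 FPKM. The retinas read 5.04 to 6.64, which overlaps, and the difference did not pass (-0.32 ± 0.17, adjusted p = 0.109). The 5 other pores tested were all lower. Scn1a, of fast-spiking neurons, lay at 0.0626 to 0.237 FPKM in pineal glands and 7.75 to 8.77 in retinas (-3.04 ± 0.07). Scn2a1, of excitatory neurons, lay at 0.0799 to 0.737 and 4.69 to 5.32 (-2.31 ± 0.11). Scn3a and Scn4a differed by -1.31 and -1.32. Scn4a, the skeletal muscle pore, lay at 0.00525 to 0.0169 FPKM in pineal glands and 0.740 to 2.69 in retinas.

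The sodium channel beta subunits, which link the pore to the membrane skeleton and adhesion partners, were all 4 lower in the pineal gland. Their sum was 4.43 ± 1.10 FPKM against 33.5 ± 2.59 in retinas (SD, n = 6) and 112 in mixed tissue. Scn2b read 1.13 to 1.51 against 11.4 to 15.4 FPKM (-2.62 ± 0.08), and Scn3b 1.01 to 1.87 against 9.29 to 11.9 (-2.22 ± 0.10). Scn4b differed less (-0.59 ± 0.11). Scn7a (Nax, chr3:48633302-48710728), a sodium sensor of glia and of the brain's salt-sensing organs rather than a voltage-gated channel, was the only Scn gene higher in the pineal gland. It read 4.26, 3.71, 4.01, 4.04, 4.46 and 3.03 FPKM against 0.404 to 0.598 in the retinas, 7.59-fold higher (1.69 ± 0.09, adjusted p = 3.32e-10).

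Of the HCN family, Hcn2 was higher in the pineal gland. Hcn2 (chr7:11485257-11503614), a strongly cyclic AMP-responsive member of thalamus and heart, read 109, 104, 96.7, 102, 81.5 and 96.4 FPKM in pineal glands and 15.2, 17.1, 16.2, 14.1, 16.7 and 14.6 in retinas. It was the most abundant of all 41 members in the pineal gland by mean, 98.2 ± 9.42 against 15.7 ± 1.21 FPKM (SD, n = 6), 6.27-fold higher (2.57 ± 0.08, adjusted p = 5.79e-13). Hcn2 took 74.0 to 85.3% of the HCN sum in each pineal library and 20.3 to 25.5% in each retina.

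Within each tissue Hcn2 lay above Hcn3 and Hcn3 above Hcn4 in all libraries, without overlap. Hcn3 read at most 3.46 FPKM in pineal glands and 6.47 to 9.13 in retinas (-1.16 ± 0.11). Hcn4, the pacemaker channel of the sinoatrial node, was low in pineal glands at 0.0149 to 0.111 FPKM and in retinas at 4.25 to 4.72 (-2.39 ± 0.06, adjusted p = 2.03e-14).

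**Figure D3:**
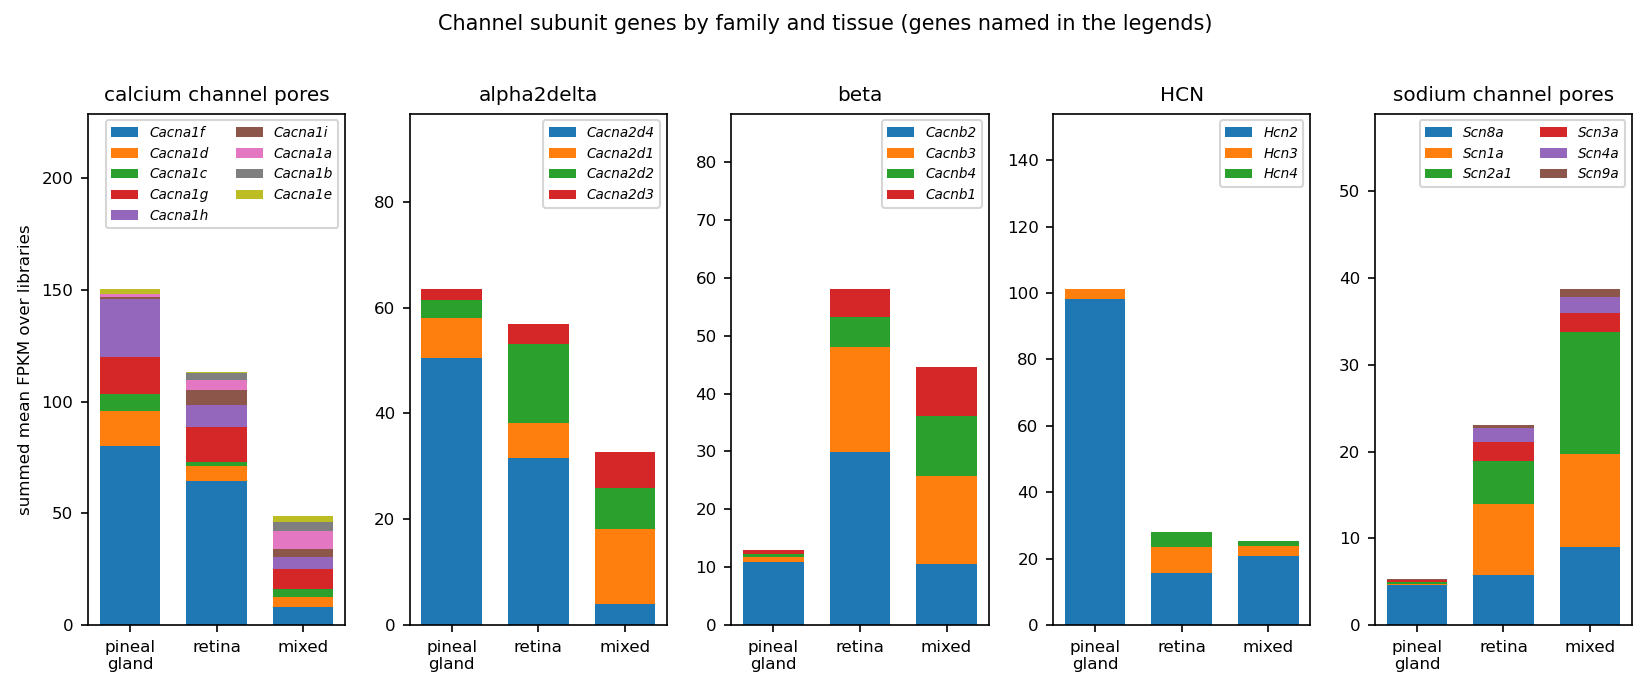
Bars give the mean FPKM over the libraries of each tissue (6 pineal, 6 retina, 2 mixed), stacked by gene within 5 subunit families; each panel has its own axis, which starts at 0. Stacks hold only the genes named in the legends. Hcn2 is taller in the pineal gland (98.2 FPKM) than in the retina (15.7), and the beta and sodium channel pore bars are shortest in the pineal gland.

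Against mixed tissue, 34 of the 39 members passed in the pineal gland, 6 higher and 28 lower (64.8% of all genes passed, 19.8% higher and 45.0% lower). The 28 include Cacng1 and Cacng8. These reached the 1 FPKM needed for testing in the mixed libraries only, so the filter itself favoured their calls as lower. Among the 6 were Cacna2d4 (3.35 ± 0.27), Cacna1f (3.16 ± 0.15), Hcn2 (2.19 ± 0.12), Cacna1h (2.02 ± 0.29) and Cacna1d (1.58 ± 0.19), and each of these kept its call under all 21 alternatives. Cacna1f read 8.78 and 7.24 FPKM in the mixed libraries of ZT7 and ZT19, which contain retina, and the mean of Cacna2d4 there was 3.92. Scn2a1 was among those farthest below, at 13.6 and 14.5 FPKM in mixed tissue (-3.64 ± 0.15). With quantile normalization 9 members were higher and 20 lower; that setting moved the median of all genes from -0.25 to 0.22.

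Of the retina's members, 32 of 39 passed against mixed tissue, 12 higher and 20 lower (65.0% of all genes, 18.4% higher and 46.6% lower), with Cacna1f at 2.86 ± 0.15 and Cacna2d4 at 2.76 ± 0.27. The 20 again include Cacng1 and Cacng8, which were tested only through their mixed tissue values. The split depended on scaling: 14 higher and 12 lower with median ratio scaling, and 18 and 10 with quantile normalization (median of all genes -0.30, -0.03 and 0.19). Pineal and retina contrasts with mixed tissue share the mixed libraries and are given side by side only.

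Over the day, several members changed in the pineal gland. A 24-h cosine passed for 13 of the 37 members tested (adjusted p under 0.05 over 10416 genes, moderated F test), 35.1% where 20.7% of all genes tested passed. The fitted peak fell in the dark for 4 and in the light for 9 (6.61% and 14.1% of all genes). In the retina 1 of 37 passed, with its peak in the light (1.02% of all genes, 0.317% with a dark peak and 0.701% with a light one). With quantile normalization 11 pineal members passed, 5 with a dark peak and 6 with a light one. Among the 20 members of at least 1 FPKM in every library of both tissues, the highest library was a median 2.01 times the lowest in the pineal gland and 1.29 times in the retina. Over all 8491 such genes these medians were 1.54 and 1.39. With 1 library per time, the error of these tests is the departure from a cosine.

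Several pore genes were highest around the end of the night. Cacna1c was highest at ZT1 (13.5 FPKM) and ZT23 (12.1) and lowest at ZT13 (3.22) and ZT15 (3.37), a fitted peak-to-trough range of 1.81 on the log2 scale with its peak at ZT0.56 (adjusted p = 3.71e-05). Cacna1g was highest at ZT23 (29.8) and lowest at ZT13 (4.72), a range of 2.48 with the peak at ZT23.9 (adjusted p = 0.000484). Cacna1h peaked at ZT23 (47.7) and was lowest at ZT7 (16.1), a range of 1.41 with the peak at ZT22.5 (adjusted p = 0.00262). In the retina the 3 genes stayed within 1.28 to 1.71, 15.4 to 16.7 and 9.35 to 10.1 FPKM.

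Cacna2d4 had its highest pineal values at ZT1 (74.8) and ZT23 (68.7) and its lowest at ZT15 (35.4), with ZT19 (36.0) still low, a range of 1.15 and a peak at ZT2.44 (adjusted p = 0.00115). Cacna1f was also highest at ZT1 and ZT23, with a smaller range of 0.48 and a peak at ZT2.03 (adjusted p = 0.0284). Cacna2d4 lies 28911 bases from Cacna1c on chromosome 4. Cacng2 (0.91, peak ZT22.6, adjusted p = 0.0416) and Cacnb1 (0.85, peak ZT21.2, adjusted p = 0.0267) also peaked late in the dark; the Cacnb1 values were 0.654, 0.305, 0.333, 0.522, 1.08 and 1.25 FPKM.

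Other members peaked in the second part of the light. Cacnb2 was at 11.4 to 15.1 FPKM from ZT1 to ZT15 and at 5.89 and 5.33 at ZT19 and ZT23 (1.42, peak ZT9.04, adjusted p = 0.0147). Cacna1e read 1.11, 2.63, 2.51, 2.67, 1.82 and 1.32 FPKM (0.81, peak ZT11.5, adjusted p = 0.0104). Cacnb4, Cacng4 and Cacng7, at most 1.29 FPKM in any pineal library, peaked at ZT12.6, ZT9.20 and ZT9.50 (adjusted p = 0.0276, 0.0227 and 0.0327). Cacna1d had its lowest pineal values at ZT1 and ZT23 but did not pass (adjusted p = 0.0617; it passed without pineal ZT7, ZT13 or ZT19, at 0.0383, 0.0386 and 0.0111). Hcn2, at 81.5 to 109 FPKM over the day, did not pass (adjusted p = 0.374). Of the 11 Scn genes tested with limma, 0 passed in the pineal gland, with 2 at an unadjusted p under 0.05; Scn8a passed without pineal ZT7 (adjusted p = 0.0133) and Scn4b with a pseudocount of 0.1 FPKM (0.0333).

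**Figure D4:**
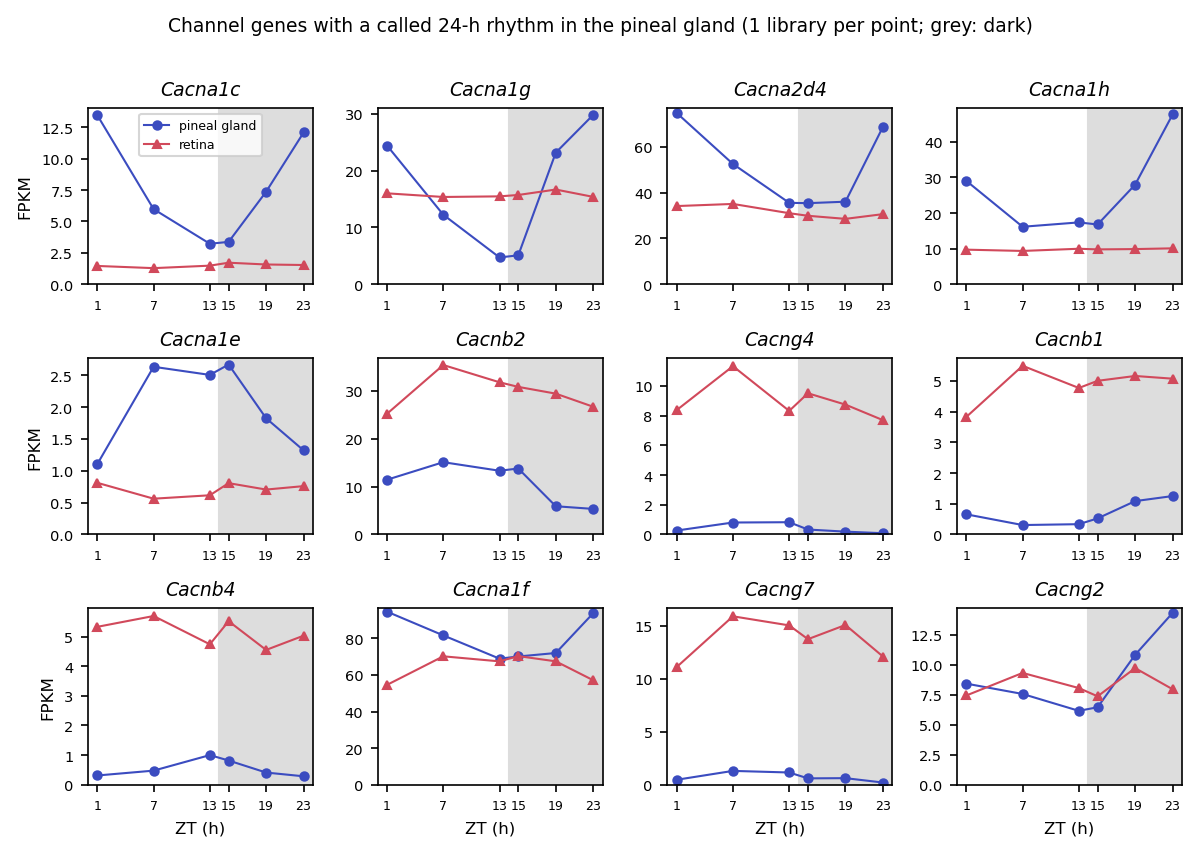
FPKM against time of day for 12 of the 13 genes with a called pineal rhythm; circles are pineal libraries, triangles retina libraries (1 library per point), grey marks the dark, and each panel has its own axis starting at 0. Pineal Cacna1c, Cacna1g, Cacna1h and Cacna2d4 are high at ZT23 and ZT1, while the retina lines of Cacna1c, Cacna1g and Cacna1h stay nearly level.

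Among the 13, Cacna1c, Cacna1g, Cacna1h and Cacna2d4 kept their call under all 20 alternatives. Leaving out the pineal library of ZT23 left 6 members called and leaving out that of ZT13 left 8. Cacnb2 was lost without pineal ZT23 (adjusted p = 0.0616), Cacnb4 without ZT13, ZT15 or ZT23 (0.132, 0.0566 and 0.0935), and Cacnb1 without ZT13, ZT19 or ZT23 (0.0754, 0.0596 and 0.113). Cacng4 was lost without ZT7, ZT13 or ZT23 (0.0555, 0.0719 and 0.0918). Cacna1f was lost without pineal ZT1, ZT13 or ZT23 (0.0856, 0.0845 and 0.0991) or retina ZT15 or ZT23 (0.0504 and 0.0518). Cacng2 and Cacng7 were lost without any of several libraries of either tissue, with adjusted p up to 0.206 and 0.137. Quantile normalization ended the calls of Cacna1e (0.0549), Cacnb4 (0.0503) and Cacng7 (0.107). With each tissue fitted alone, Cacna1e and Cacnb2 (both 0.0855), Cacna1f (0.106), Cacng2 (0.116), Cacnb1 (0.120) and Cacng7 (0.141) did not pass. Without both retinas of ZT1 and ZT19, Cacng4 (0.0594), Cacna1f (0.0600), Cacng7 (0.0618), Cacnb4 (0.0718) and Cacng2 (0.0730) did not. With no filter, Cacnb1 (0.0506), Cacng7 (0.0601) and Cacng2 (0.0741) were lost, and Cacng7 also with median ratio scaling (0.0592).

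The rhythms themselves differed between the tissues for 6 of 37 members (4.95% of all genes tested), by the test of the difference of the cosine and sine terms. Among these were Cacna1c (adjusted p = 0.000965), Cacna1g (0.00994), Cacna2d4 (0.0336), Cacna1f (0.0366) and Cacna1h (0.0393). Only Cacna1c held under all 19 alternatives. With both lens-rich retinas left out, Cacna1g (0.108), Cacna2d4 (0.194), Cacna1f (0.210) and Cacna1h (0.241) were all lost. With no filter, Cacna1f (0.0565), Cacna2d4 (0.0597) and Cacna1h (0.0788) were lost. With no mean-variance trend, Cacna1h (0.0520) and Cacna1f (0.0566) were lost. Cacna2d4, Cacna1f and Cacna1h were each lost without retina ZT1, ZT13, ZT15 or ZT23, with adjusted p from 0.0619 to 0.139, and without pineal ZT23 (0.0503 to 0.107). Single losses beyond these were without retina ZT7 or ZT19 (Cacna2d4 and Cacna1h, 0.0625 to 0.103), pineal ZT1 or ZT13 (Cacna1f and Cacna2d4, 0.0634 to 0.0861) and pineal ZT7 or ZT15 (Cacna1h, 0.0518 and 0.0520).

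The retina's only call was Scn4a, at 1.09, 1.76, 2.11, 2.69, 1.28 and 0.740 FPKM from ZT1 to ZT23, with a range of 0.89 and a peak at ZT12.0 (adjusted p = 0.0453). It was lost without any 1 of the 6 retina libraries (adjusted p from 0.0748 to 0.199), and without pineal ZT1, ZT7, ZT13 or ZT23 (0.0502 to 0.0786), which share the error estimate.

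Late dark (ZT19 and ZT23) was also compared with light (ZT1, ZT7 and ZT13), which sets the high ZT1 values of Cacna1c and Cacna2d4 against the high ZT23 values. In the pineal gland 3 of 37 members passed (7.28% of all genes, 3.04% higher and 4.23% lower). Cacnb2 was lower in late dark, 5.61 ± 0.395 (SD, n = 2) against 13.3 ± 1.84 FPKM (SD, n = 3), without overlap (-1.10 ± 0.15, adjusted p = 0.00265). Cacng2 was higher, 12.6 ± 2.47 against 7.37 ± 1.14 (0.69 ± 0.16, adjusted p = 0.0295), and so was Cacnb1, 1.17 ± 0.117 against 0.431 ± 0.194 (0.61 ± 0.15, adjusted p = 0.0402). The late dark libraries were also the 2 of lowest estimated depth among the pineal glands; the part of depth in these results was not tested.

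The late dark calls rested on few libraries. With ZT15 grouped with the dark, 0 of 37 passed, and Cacnb2, whose ZT15 value (13.8 FPKM) lay among the light ones, had an adjusted p of 0.364. Without pineal ZT1, 11 passed, Cacna1g (1.65, adjusted p = 0.00451) and Cacna1h (1.08, adjusted p = 0.00494) among them. Leaving out any of pineal ZT7, ZT13, ZT19 and ZT23 ended the calls of Cacnb1 (0.0993 to 0.142) and Cacng2 (0.0523 to 0.134), as did leaving out retina ZT13 (0.0653 and 0.0517), and for Cacnb1 also retina ZT19 or ZT23 (0.0695 and 0.0696). With median ratio scaling, which moved the median of all genes from -0.12 to -0.01, 5 passed, 4 higher and 1 lower. In the retina 0 of 37 passed with limma (1 at an unadjusted p under 0.05; 0.00960% of all genes passed). The late dark effect differed between the tissues for 0 of 37 (6 unadjusted; 0.710% of all genes, 0.566% higher and 0.144% lower in the pineal gland), with Cacnb2 nearest at an adjusted p of 0.0767.

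Genes of proteins that bind or regulate these channels were set beside them; 26 of 32 listed were found. The list was chosen with earlier results known. In pineal gland against retina 21 of 26 passed, 6 higher and 15 lower, beside the 36.9% and 32.0% of all genes. All 7 sodium channel partners were lower, such as the anchors Ank3 (7.48 to 8.88 against 19.6 to 22.7 FPKM, -1.29 ± 0.07) and Nfasc (2.38 to 4.33 against 20.8 to 24.8, -2.48 ± 0.10). Stac2, an adaptor of L-type channels, lay at 0 to 0.111 FPKM in pineal glands and 12.2 to 15.0 in retinas. Of the 16 calcium channel partners tested, 5 were higher in the pineal gland and 6 lower, with calcium sensors on both sides. Gem, a small G protein that inhibits calcium channels through the beta subunit, was higher in the pineal gland (2.52 ± 0.31). So were the calcium sensors Cabp1 (1.05 ± 0.26) and Cabp5 (1.56 ± 0.17), while other calcium sensors of the list were lower. Kcne2, an accessory subunit of HCN and potassium channels, was also higher (1.62 ± 0.22), and the HCN trafficking partner Pex5l was lower (-1.39 ± 0.09).

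In the pineal rhythm test 8 of 23 partners passed (20.7% of all genes), and in the retina 0 of 23 with limma (1.02% of all genes; 4 at an unadjusted p under 0.05). Gem read 30.2, 26.0, 28.8, 38.5, 131 and 73.0 FPKM from ZT1 to ZT23, higher in late dark by 1.75 ± 0.19 (adjusted p = 0.000797), an effect that differed from the retina's (adjusted p = 0.0131). The libraries of ZT19 and ZT23, where Gem was highest, were those where Cacnb2 was lowest. They also had the lowest estimated depth among the pineal glands (0.410 and 0.450), and a link between the 2 genes was not tested. Cabp1, which binds L-type pores, read 186, 96.3, 73.9, 74.9, 105 and 232 FPKM, highest at ZT23 and ZT1 like Cacna1c (range 1.57, peak ZT0.359, adjusted p = 0.00114). Fgf13, a partner of sodium channels, read 4.36, 11.9, 11.4, 10.8, 6.74 and 2.60, lowest at ZT23 and ZT1 (adjusted p = 0.00128). Kcne2 was lower in late dark (25.8 and 35.7 against 54.9 to 64.4 FPKM, -0.94 ± 0.19, adjusted p = 0.0174). Rhythms differed between the tissues for Cabp1, Rem2 and Fgf13 (adjusted p = 0.00852, 0.0103 and 0.0267).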

How the data were processed

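RNA of pooled pineal gland, retina and mixed tissue was poly(A)-enriched, copied with random primers and read as 101-base paired ends, per the labels' protocols. TopHat 1.3.1, Cufflinks 1.2.0 and the rn4 build are named in the submitters' processing notes. The authors deposited FPKM per RefSeq transcript, which set each library relative to its own fragments; counts were not used and exact depth is unknown. FPKM were summed per gene ID. log2(FPKM + 1) was tested with limma 3.58.1 (R 4.3.3; empirical Bayes with trend, two-sided) on genes of at least 1 FPKM in 2 or more libraries, with Benjamini-Hochberg adjustment over all genes tested: the tissue fit held 14 libraries (11656 genes) and the time fits 12 (10416 genes, 6 residual degrees of freedom). Fold changes on this scale understate the change of low genes. Not tested were Cacng6 and Scn9a, and in time Cacng1 and Cacng8. Coordinates are rn4, with 1 added to the deposited starts, which count from 0. Fits were tested on simulated data. Values are named for members of at least 5 FPKM, the 10 largest calls in each direction, each subfamily's lead gene and each time call. A few genes are not reported here by name, and counts include them. Members and lists were chosen with earlier results of these data known.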

Additional observations from a re-analysis of the deposited data

Results flagged for a closer look

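In 2 of 52 groups of 6 libraries checked, 1 library stood far from the other 5 (the gap to its neighbour over the whole range was past Dixon's critical value); chance gives about 1 in 20 such groups. Cacna1i in the pineal gland was highest at ZT23, 1.52 FPKM against 0.908 to 1.11 (gap over range 0.669). Cacna1a in the retina was highest at ZT7, 5.06 against 4.54 to 4.72 (0.655).

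The 24-h rhythm differed between pineal gland and retina, by the test of the difference, for Cacna1c (adjusted p = 0.000965, limma), Cacna1g (0.00994), Cacna2d4 (0.0336), Cacna1f (0.0366) and Cacna1h (0.0393).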

How the results depend on the processing

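The members called in pineal gland against retina (34) and named here kept their direction under all alternatives except Cacna1f, which turned to -0.11 (log2) with quantile normalization. That setting also turned Scn7a in pineal gland against mixed tissue (0.19), and Cacng8 (0.0617) and Cacna1b (0.36, adjusted p = 0.00229) in retina against mixed tissue; no other call of a gene named here turned. The cause was not tested.

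The pineal rhythm count of 13 was 5 with each tissue fitted alone and 8 without the retinas of ZT1 and ZT19 (a choice made after seeing the data), and 6 to 15 with 1 library left out. The retina rhythm count of 1 was 0 with a pseudocount of 0.1 FPKM, with no filter and without both retinas, 2 with quantile normalization, and 0 to 1 with 1 library left out. The rhythm difference count of 6 was 2 with no filter, 3 with no mean-variance trend, 1 without both retinas, and 2 to 7 with 1 library left out. The pineal late dark count of 3 was 5 with a pseudocount of 0.1 FPKM or median ratio scaling, 1 with no filter, with the tissue fitted alone or without both retinas, 0 with ZT15 grouped with the dark, and 1 to 11 with 1 library left out. The late dark difference count of 0 was 1 with median ratio scaling and 0 to 1 with 1 library left out.

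With time of day as a replicate block over the 12 pineal and retina libraries, 33 of 37 members passed in pineal gland against retina (8 higher, 25 lower), and 33 passed in the same libraries without the block. The libraries share only the time of collection, and no animal is said to have given both tissues.

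Exact depth is unknown: 1 fragment is estimated at 0.0216 to 0.0527 FPKM in a transcript of 1 kb, and less in longer ones, so low values are coarse. FPKM are relative within a library. Each time of day had 1 library, and mixed tissue had 2 in all.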
